A study of Drosophila melanogaster with 3 samples.

Results

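The regions described here are the binding peaks of Nf-YC in Drosophila embryos that lay inside exons but away from the promoters of protein-coding genes. A peak of the thresholded set was kept when its summit was over 500 bp from every annotated protein-coding transcription start site (TSS) and inside an exon of any gene. This held for 299 of 7476 peaks (4.0%), or 8.56% of the 3491 peaks outside promoter windows. Of these 299 exonic peaks, 148 lay in exons of non-coding genes, 60 in 3′ untranslated regions (UTRs), 51 in 5′ UTRs and 40 in coding sequence. Since the rule uses the summit, the interval of a peak can reach a promoter: 5 of the 299 intervals hold a coding TSS and 6 hold a promoter summit too. The 299 peaks fell in 257 host genes, of which 225 held 1 peak, 24 held 2 and 8 held 3 or more. Positions refer to the dm6 genome and its Ensembl annotation, with transposable-element annotations not counted as genes.

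Chromatin came from whole embryos of both sexes, aged 0 to 18 h, of a transgenic line that carries Nf-YC with eGFP at its C terminus, and was precipitated with an antibody against GFP. The 3 biological replicates share this genotype, age and treatment, so the series has 1 group and no contrast between conditions. Signal from a whole embryo is a sum over all its cell types, and neither the sequence that drives the fusion nor the identity of the bound cells is given in the sources used here. Each replicate list holds 30000 peaks, each with the peak caller's own signal value. These values are not on a shared scale (the median peak had a signal of 61.6, 45.3 and 29.0 in replicates 1, 2 and 3), so replicates are set beside each other by rank, by density or by share. Read depth is unknown, since the lists hold no counts.

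NF-Y is a heterotrimer in which the histone-fold subunits NF-YB and NF-YC form a dimer that NF-YA joins to read the CCAAT box. CCAAT boxes are best known from promoters, but NF-Y also occupies enhancers, where its histone-like fold is known to open chromatin for other factors. Exons are transcribed parts of genes that remain in the mature RNA. They can also hold enhancers or unannotated start sites, and many non-coding RNAs of the embryo are transcribed from regulatory regions of developmental genes.

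Sequences at some of the strongest exonic summits of each class are given here because the CCAAT share differed between the classes. Capitals mark CCAAT, or ATTGG where the box lies on the other strand. Non-coding and coding summits are shown as 101 bases centred on the summit, and UTR summits as 25 bases around the CCAAT nearest to the summit. Some strong sites are not printed, and a few chosen sites say nothing of a class's share. The first set holds 5 of the strongest summits in non-coding exons, in order of signal, of which 1 has the box within these bases.
lncRNA:CR45297, chr2L:4811667-4811767, plus strand: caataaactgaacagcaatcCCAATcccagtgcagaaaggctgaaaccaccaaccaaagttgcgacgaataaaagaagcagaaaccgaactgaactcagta
lncRNA:CR44904, chr2L:18796035-18796135, plus strand: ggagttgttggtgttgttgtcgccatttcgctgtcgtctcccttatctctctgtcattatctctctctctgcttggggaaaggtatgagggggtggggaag
lncRNA:CR43644, chr3R:26020912-26021012, plus strand: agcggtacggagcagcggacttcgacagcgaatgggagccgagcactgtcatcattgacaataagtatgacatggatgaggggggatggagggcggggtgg
lncRNA:CR45559, chr3R:6893260-6893360, plus strand: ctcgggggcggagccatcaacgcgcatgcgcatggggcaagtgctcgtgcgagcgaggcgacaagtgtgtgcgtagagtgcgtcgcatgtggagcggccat
lncRNA:CR45899, chr3R:7000913-7001013, plus strand: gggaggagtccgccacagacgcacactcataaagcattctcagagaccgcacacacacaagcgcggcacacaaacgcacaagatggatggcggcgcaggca
The second set holds 5 of the strongest coding-sequence summits, in order of signal, without that of subdued, whose window reaches into an annotated UTR. Of these, 3 have the box within these bases. Ets21C encodes an ETS transcription factor, Rfx a winged-helix factor needed for ciliated sensory neurons, and bif the cytoskeletal protein Bifocal.
Ets21C, chr2L:548127-548227, plus strand: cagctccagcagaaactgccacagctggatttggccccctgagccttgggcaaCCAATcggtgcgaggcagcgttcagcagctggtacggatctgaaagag
CG18599, chr3R:18269952-18270052, plus strand: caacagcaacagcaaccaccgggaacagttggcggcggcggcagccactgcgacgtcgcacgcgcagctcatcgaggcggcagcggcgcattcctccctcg
Rfx, chr3R:10364449-10364549, plus strand: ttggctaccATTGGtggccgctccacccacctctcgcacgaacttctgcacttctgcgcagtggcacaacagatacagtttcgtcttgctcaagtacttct
CG5225, chr3R:17029949-17030049, plus strand: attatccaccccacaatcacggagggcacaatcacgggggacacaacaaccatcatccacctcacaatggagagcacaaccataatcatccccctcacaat
bif, chrX:11681797-11681897, plus strand: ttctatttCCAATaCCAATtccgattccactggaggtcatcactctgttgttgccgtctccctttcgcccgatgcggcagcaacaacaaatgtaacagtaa
The third set holds the CCAAT boxes of the 5 strongest 5′ UTR summits, in srp (a GATA factor of blood and fat body), disco-r (a zinc-finger factor of head segments), CG32532, Tango5 and baz (the polarity protein Par-3).
srp, chr3R:15993184-15993208, plus strand: cacaacaacaCCAATcgagcaacag
disco-r, chrX:16147956-16147980, plus strand: tgcctttcgaCCAATgacactcgac
CG32532, chrX:19546058-19546082, minus strand: gagttaaccaCCAATcgttcgcgcg
Tango5, chrX:10763366-10763390, plus strand: tacttgagcaCCAATaaaatgaatc
baz, chrX:17178708-17178732, minus strand: agaatacaagCCAATaaaatgtata
The last set holds those of the 2 strongest 3′ UTR summits, in CG16989 and tio, a zinc-finger factor of the teashirt family.
CG16989, chrX:796623-796647, minus strand: tttccagttaCCAATtgaCCAATag
tio, chr2L:22024684-22024708, minus strand: tcgccaccatCCAATtccactttga

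Exonic summits were sparse for the length of exons, and the shortage lay in coding sequence and 3′ UTRs. Per megabase (Mb) of sequence over 500 bp from a coding TSS, the thresholded set had 2.12 summits in coding sequence and 9.92 in 3′ UTRs, against 39.1 in introns and 29.6 between genes. In 5′ UTRs it had 61.9 per Mb, and in non-coding exons 70.3 per Mb. Promoter windows had 260 per Mb. The rule was then applied to the 7476 strongest peaks of each replicate, which gave 325, 299 and 316 exonic peaks in replicates 1, 2 and 3.

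The order of the classes was almost the same in each replicate. The density over all exons was 11.2 ± 0.47 summits per Mb (SD, n = 3), against 38.2 ± 1.0 in introns, a log2 ratio of −1.71, −1.80 and −1.79 in replicates 1, 2 and 3. Coding sequence stood lowest, with a mean log2 ratio to introns of −3.93 ± 0.13 (SD, n = 3), and 3′ UTRs stood at −1.87 ± 0.13. Non-coding exons stood above introns by a log2 ratio of 0.87 ± 0.11 and above intergenic sequence by 1.22 ± 0.15. The 5′ UTRs stood above introns by 0.82 ± 0.12. Each of these 6 ratios had the same sign in 3 of 3 replicates and was several times its SD. A two-sided exact sign-flip permutation test over the replicates gave p = 0.25 for each, the smallest value that 3 replicates allow (adjusted p = 0.346 over 18 tests), so no comparison of this design can pass a threshold of 0.05. The densities of 5′ UTRs (59.5 to 72.8 per Mb) and non-coding exons (66.5 to 75.1 per Mb) overlapped. How much of each class can be mapped with unique reads was not tested.

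**Figure D1:**
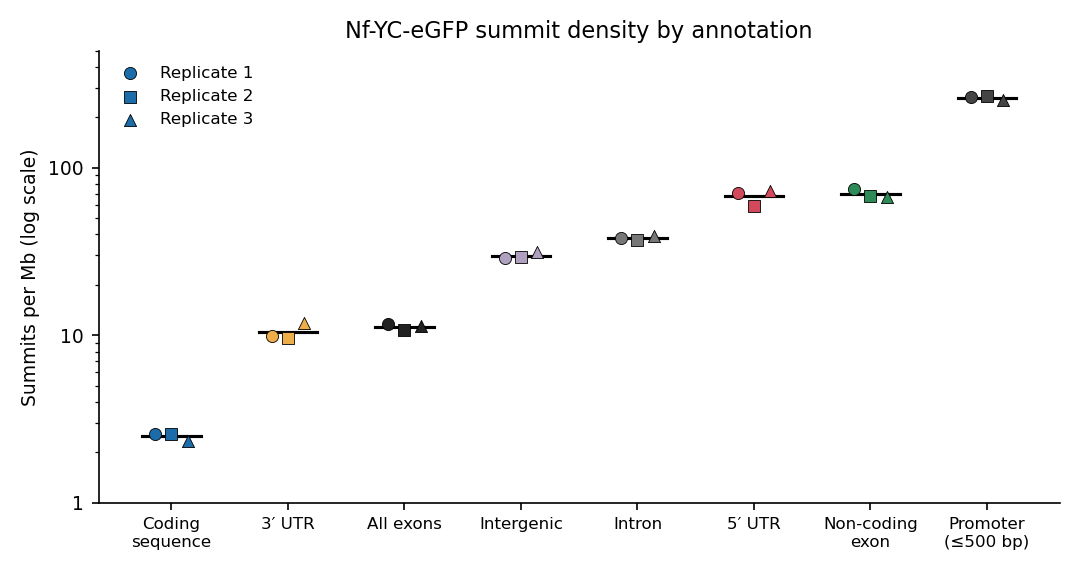
Summits per Mb (log axis) in each annotation class, for the 7476 strongest peaks of each of the 3 replicates; points are replicates and lines their means. All classes except the promoter windows lie over 500 bp from a coding TSS. Coding sequence (2.5 on average) and 3′ UTRs (10.5) lie below introns (38.2) in every replicate, while 5′ UTRs (67.6) and non-coding exons (69.8) lie above.

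The non-coding exons kept their density far from coding genes, where introns and intergenic sequence did not. Between 500 and 1000 bp from a coding TSS, non-coding exons held 87.8 ± 9.4 summits per Mb (SD, n = 3) and introns 93.0 ± 1.3, values within the spread of the replicates. Beyond 5000 bp, non-coding exons still held 61.7 ± 3.8 per Mb, against 22.3 ± 1.5 in introns and 19.1 ± 0.90 in intergenic sequence, with no overlap between replicates. The 5′ UTRs held 86.6 ± 13.1 per Mb at 500 to 1000 bp and 49.6 ± 14.2 beyond 5000 bp, the latter from 7 peaks of the thresholded set. Coding sequence stayed between 1.82 and 3.46 per Mb on average at every distance. The 3′ UTRs had their lowest density, 3.76 ± 0.65 per Mb, nearest to coding start sites and their highest, 18.9 ± 1.8, at 1000 to 2000 bp. These distance bins were chosen after the peaks had been seen.

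**Figure D2:**
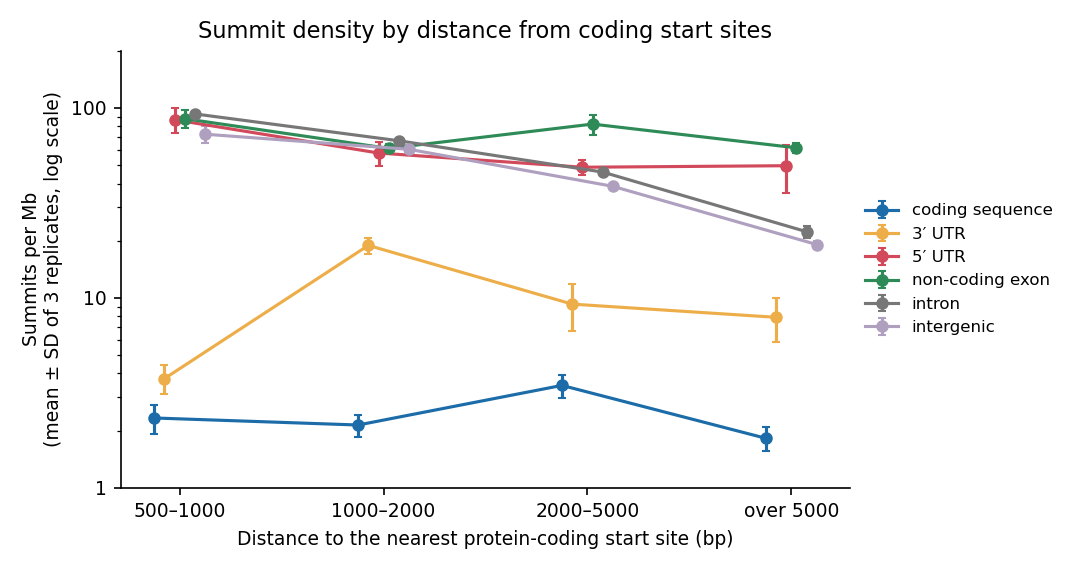
Summits per Mb (mean ± SD of 3 replicates, log axis) against the distance to the nearest coding TSS, for 6 annotation classes. Introns fall from 93.0 to 22.3 per Mb across the bins, while non-coding exons lie between 61.2 and 87.8 throughout and coding sequence reaches at most 3.46 per Mb.

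Exons of long non-coding RNAs were the largest group of exonic sites. Of the 148 peaks in non-coding exons, 134 lay in genes named lncRNA, 9 in antisense RNAs, 2 in small nuclear RNAs, 2 in small nucleolar RNAs and 1 in the RNA of RNase MRP, the enzyme that processes ribosomal RNA precursors. No summit lay in an exon of the 290 annotated tRNA, 99 rRNA or 268 pseudogene genes outside promoter windows. The exon bases of each kind of non-coding gene were not counted. These counts are thus not read as more or fewer than the length of a kind would give. Of the 148, 84 (56.8%) were within 500 bp of a non-coding TSS. Of all non-coding exon bases, 49.3% lie that near to one. The density was 81.8 ± 6.9 summits per Mb (SD, n = 3) in the exon bases within 500 bp of a non-coding TSS and 58.1 ± 5.2 in those farther away, with replicate ranges that did not overlap (74.1 to 87.6 and 52.5 to 62.8). Intronic and intergenic bases within 500 bp of a non-coding TSS held 91.2 ± 6.6 per Mb, and those farther away 33.9 ± 1.3. Away from annotated non-coding starts, exons of non-coding RNAs thus remained denser in summits than introns and intergenic sequence in each replicate.

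The strongest exonic peak of the set lay in lncRNA:CR45297 on chr2L:4809805-4812564, with its summit 228 bp from the start of this RNA and 1292 bp upstream of CG15629, the nearest coding gene. The host exon is 235 bp long and the summit lay 6 bp from its edge. The peak interval spans 2760 bp and holds 3 thresholded summits, so the site is exonic by a narrow margin. This summit ranked 5 of 7476 in the thresholded set, and 5, 4 and 29 in replicates 1, 2 and 3, with signals of 24219, 16899 and 8111. Replicate 3 thus gave it the lowest rank, though still among its strongest peaks. Next among non-coding exons came lncRNA:CR45324 on arm 2R, 618 bp from the start of TER94, with signals of 7404, 5361 and 2393, in an interval that holds a coding TSS. TER94 encodes an AAA ATPase that extracts ubiquitylated proteins. It was followed by lncRNA:CR44904 (chr2L:18795554-18796988; 6577, 4351 and 3101), whose summit lay 95 bp from its own start and 3179 bp upstream of ham, a PR-domain factor that shapes sensory neurons.

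Other strong non-coding sites are given with their nearest coding genes. The summit in lncRNA:CR43644 (4477, 3334 and 2250 in replicates 1, 2 and 3) lay 861 bp upstream of E(spl)m3-HLH, a Notch-responsive basic helix-loop-helix repressor. Its peak interval holds a coding TSS and a second summit that counts as a promoter peak. In the Antennapedia complex, the summit in lncRNA:CR45559 (3670, 2412 and 2450) lay 28986 bp from the nearest coding start, that of the pair-rule gene ftz. A second one in lncRNA:CR45899 (2803, 1845 and 1960) lay 1735 bp upstream of the Hox gene Antp. These 3 sites were ranked between 139 and 277 in all 3 replicate lists. The remaining non-coding sites among the 12 strongest exonic ones were lncRNA:CR46336 on arm 2R (3150, 2108 and 1347) and asRNA:CR43926 (3152, 2399 and 1063). The former lay 11453 bp from the start of NAT1, its nearest coding gene. The latter lay 579 bp from the start of dsf, a nuclear receptor of sexual behaviour.

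Primary transcripts of microRNAs recurred among the non-coding hosts. Such transcripts are long RNAs from which short hairpins are cut and processed to mature microRNAs. Of the 116 host genes of biotype ncRNA, 11 (9.48%) enclose an annotated microRNA gene on the same strand, and together these 11 held 24 of the 148 non-coding peaks. Among all 3001 genes of this biotype other than microRNA genes themselves, 37 (1.23%) enclose one. The comparison was chosen after the hosts had been seen and is given as a description. The host genes had a median length of 1169 bp, against 605 bp for all genes of the biotype, and the part of length in this difference was not tested. Some microRNA hosts have long exons, such as 21216 bp in lncRNA:Hsromega and 15466 bp in lncRNA:CR43334. The share of non-coding exon bases that the 11 hosts hold was not counted, so their share of the 148 peaks (16.2%) has no base share beside it.

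The gene with most exonic peaks was lncRNA:CR43334, which RefSeq also lists as pri-bantam, the precursor of bantam, a microRNA that promotes growth and blocks cell death. It held 7 summits between chr3L positions 629497 and 642712. Its strongest summit, 339 bp from an annotated start, had signals of 403, 246 and 112 in replicates 1, 2 and 3, and the other 6 had thresholded signals between 249.8 and 326, near the lower limit of the set (246). Of the 7, 3 shared 1 peak interval of 1423 bp, and 1 of these had no match in replicate 3. The next was lncRNA:CR43650 (pri-mir-8, the precursor of the fly member of the miR-200 family, on arm 2R), with 4 summits. Its strongest, 191 bp from the RNA's start, had signals of 885, 573 and 496, and the weakest 184, 89.2 and 78.2.

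Other microRNA hosts held 1 to 3 peaks. An exon shared by lncRNA:CR45388 (pri-mir-315) and the antisense RNA asRNA:CR45912 held a stronger summit, with signals of 1188, 845 and 513 in replicates 1, 2 and 3. lncRNA:CR43626, which encloses mir-282, held 1 with 700, 411 and 276. In the bithorax complex, lncRNA:iab8, the precursor of mir-iab-8 that silences Hox genes in the posterior nervous system, held 1 summit 82 bp from a start (772, 573 and 338), and lncRNA:iab4 held a weaker one 20 bp from its start (109, 99 and 66.7). The precursors of mir-13b-1 with mir-13a and mir-2c, of mir-276a, of mir-277 with mir-34 and of mir-184 held 6 peaks with thresholded signals between 257 and 411.

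Well-studied long non-coding RNAs also held peaks. lncRNA:Hsromega, the heat-inducible RNA that builds nuclear omega speckles, held 3, of which the strongest lay 156 bp from its start with signals of 790, 534 and 166. lncRNA:roX1, an RNA of the dosage compensation complex of the X chromosome, held 2 with thresholded signals of 406 and 336. lncRNA:cherub, an RNA of neural stem cells, held 2 (1852 and 633). The other lncRNA genes with 3 peaks each were lncRNA:CR44603 (thresholded signals of 293 to 326), lncRNA:CR44917 (248 to 1745) and lncRNA:CR45267 (288 to 3974). The last lies on arm 2R, with its strongest summit 6731 bp from Optix, a homeobox gene of eye and head, at ranks of 471, 449 and 253. Among small RNAs, snRNA:7SKa, which holds the elongation factor P-TEFb inactive, had signals of 295, 199 and 139 at a summit 212 bp from its start.

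The 5′ UTR peaks lay nearer to coding start sites than those of any other exonic class, at a median distance of 924 bp, against 2206 bp in coding sequence, 1895 bp in 3′ UTRs and 4091 bp in non-coding exons. Of the 51, 26 were within 1000 bp of a coding TSS and 26 were in a first exon of a host transcript. Of the 0.824 Mb of 5′ UTR bases over 500 bp from a coding TSS, 0.362 Mb also lay within 1000 bp. The density of 5′ UTR summits was also higher in this bin, at 86.6 per Mb on average over replicates, than in the bins farther away (48.7 to 57.9). The part of each in the nearness of these peaks was not tested. The share of bases in first exons was not counted. The strongest, in srp, ranked 67, 65 and 69 in replicates 1, 2 and 3, with signals of 7995, 5732 and 4950, and the same bases are an exon of lncRNA:CR44133. The disco-r summit (7408, 4408 and 5638) ranked 76, 100 and 55. The srp signals followed the order of the list medians, whereas replicate 3 ranked the disco-r summit higher than the others did.

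The next 5′ UTR peaks were in CG32532 (2282, 1617 and 1356 in replicates 1, 2 and 3), in Tango5, which acts in secretion and autophagy (1291, 856 and 432), and in baz (1170, 930 and 441). The baz summit lay 18755 bp from the nearest coding TSS. baz held 3 such peaks, the others with thresholded signals of 280 and 484. The 5′ UTR of spen, a large RNA-binding repressor of developmental signalling, also held 3 (432 to 1110), of which 1 had no match in replicate 2. The 2 exonic peaks closest to the 500 bp limit were in the 5′ UTR of Pdp1, a bZIP factor of the clock and muscle, at 542 bp (signal 623), and in the coding sequence of Uba1, the ubiquitin-activating enzyme, at 547 bp (353). Just outside lay peaks in Fer1HCH, the ferritin heavy chain, at 496 bp (278) and in lncRNA:CR44826 at 493 bp (586).

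Coding sequence held few peaks for its 18.9 Mb. The strongest of the 40 was in Ets21C, 1325 bp downstream of a start, with ranks of 332, 297 and 366 and signals of 2143, 1698 and 878 in replicates 1, 2 and 3. A weaker summit in the 3′ UTR of Ets21C ranked between 1926 and 2736. The following ones were CG18599 (947, 803 and 225), Rfx (824, 607 and 231), CG5225 (690, 510 and 253) and subdued, a calcium-activated chloride channel (590, 289 and 188). Replicate 3 gave the lowest signal for all 5, in the order of the list medians. The homeobox gene otp differed, with 336, 350 and 373 and ranks of 2276, 1407 and 866. Of the 40 summits, 9 lay within 50 bp of an end of the host exon. Over all exonic peaks this held for 13.4% of the 299.

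The strongest 3′ UTR peak was in CG16989, 3526 bp from its start, with signals of 12001, 7558 and 3260 and ranks of 35, 45 and 118. It was followed by tio (6192, 4118 and 6836), Lim1, a LIM homeobox factor (1584, 1105 and 1596), the gap gene kni (625, 444 and 486) and stas (665, 375 and 289). For tio and Lim1 replicate 3 gave the highest signal, with ranks of 104, 111 and 40 and of 430, 426 and 237. Among the 246 exonic peaks matched in all 3 lists, replicate 3 was highest in 12 and replicate 1 in 215. For 19 of the 60 3′ UTR peaks the nearest coding TSS belonged to another gene than the host, against 5 of 51 in 5′ UTRs.

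Exonic peaks had signals close to those of intronic peaks and below those of intergenic ones. Matched summits (within 100 bp) of the exonic peaks had median percentiles of 86.3, 86.4 and 86.5 in the lists of replicates 1, 2 and 3, against 87.2, 87.0 and 86.5 for intronic and intergenic peaks together. The mean difference of −0.51 percentile points was close to its SD of 0.48 (n = 3; exact sign-flip permutation p = 0.5; adjusted p = 0.562). From intronic and intergenic peaks together, the 3′ UTR peaks differed by −1.54, −2.67 and −3.34 points and the 5′ UTR peaks by −1.23, −0.99 and −0.85. Each was lower in 3 of 3 replicates (p = 0.25, exact). Non-coding exon peaks differed by −0.10, 1.38 and 1.62 points, with no common sign (exact p = 0.5). Taken apart, intronic peaks had median percentiles of 86.35, 86.11 and 85.66 and intergenic peaks 88.74, 89.30 and 88.65. The 5′ UTR medians of 85.93, 86.06 and 85.63 were thus close to those of introns. In the thresholded set, 30.4% of the peaks in non-coding exons were among the strongest 25% of all peaks, against 6 of the 60 in 3′ UTRs. The share was 32.4% for intergenic and 21.6% for intronic peaks.

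**Figure D3:**
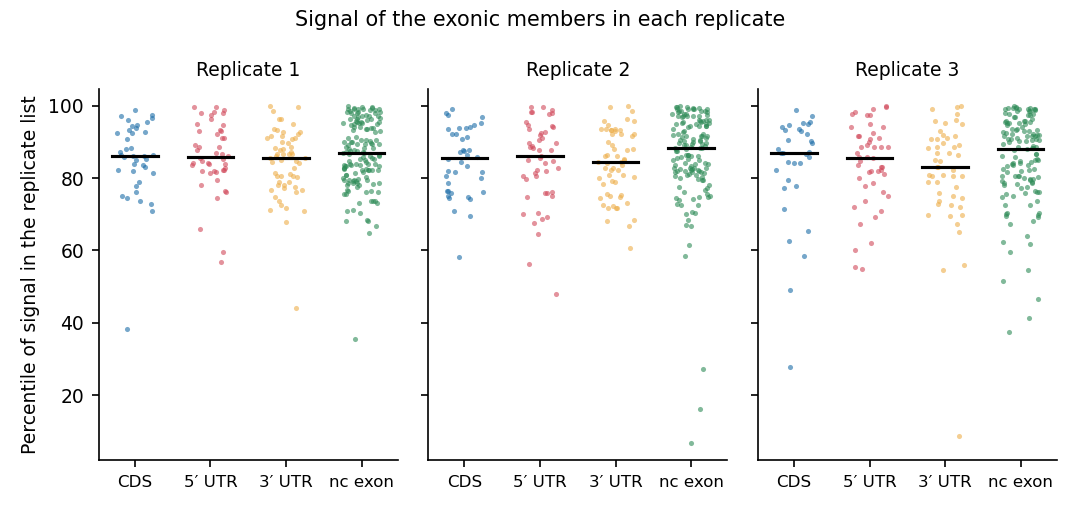
Percentile of signal of each exonic peak within the list of each replicate (100 is the strongest), by exonic class; points are peaks with a summit within 100 bp in that list and lines are medians. CDS is coding sequence and nc exon is non-coding exon. Class medians lie between 83.1 and 88.4, and a few peaks of each class lie far below them.

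Most exonic peaks were found again in the replicate lists, as were most peaks of the whole set. The set was itself thresholded for reproducibility between these replicates, so this is largely built in. A summit within 100 bp was present in all 3 lists for 246 of 299 (82.3%, 95% exact binomial interval 77.5 to 86.4), in 2 lists for 51 and in 1 list for 2, and every exonic peak had a match somewhere. The interval covers counting of peaks only. The share was 85.1% in non-coding exons, 80.4% in 5′ UTRs, 80.0% in coding sequence and 78.3% in 3′ UTRs. It was 84.9% for intronic, 87.5% for intergenic, 76.9% for promoter and 80.9% for all 7476 peaks, of which only 13 had no match. Replicate 3 missed the most exonic peaks, with matches for 87.6% of the 299, against 97.0% in each of replicates 1 and 2. Over all 7476 peaks, replicate 3 had matches for 87.5%. The 2 peaks with a match in 1 list were in lncRNA:CR44538 and the 3′ UTR of CG34276, with thresholded signals of 249 and 248, at the lower end of the set.

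The CCAAT box, searched on both strands within 100 bp of the summit, divided the exonic classes. It was present at 117 of the 299 summits (39.1%). It was present at 22 of 40 in coding sequence (55.0%), 22 of 51 in 5′ UTRs (43.1%), 58 of 148 in non-coding exons (39.2%) and 15 of 60 in 3′ UTRs (25%). Over exonic peaks as a whole the share did not stand apart from intronic and intergenic ones. In the replicate lists the exonic share was 39.2% ± 2.3 (SD, n = 3) against 39.5% on average, a difference of 1.15, 0.87 and −2.66 percentage points in replicates 1, 2 and 3 (exact p = 1). Without replicate 3 the mean difference was 1.01 points, so this library decided its sign.

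Because base composition differs between exons and introns, the share at summits was set against the share among all windows of that length centred in the same class. For coding sequence, 37.3% of all windows held CCAAT, and the summits of replicates 1, 2 and 3 stood at 59.2%, 53.1% and 56.8%, on average 19.1 points higher. The 5′ UTR summits stood 6.39 points above their windows (40.2% ± 3.3 against 33.8%) and the 3′ UTR summits at −2.79 points from theirs (29.97% ± 1.4 against 32.8%). Each of these had 1 sign in 3 of 3 replicates, at the smallest exact p of 0.25 (adjusted p = 0.292 over 42 tests of this kind). In non-coding exons the summits were at 39.9%, 38.5% and 33.6% against 35.5% of all windows, on both sides of it. Among introns they stood 3.22 points above and in intergenic sequence 6.21.

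Stronger exonic peaks held CCAAT more frequently. With the thresholded set cut into 4 equal groups by signal, the share was, from the strongest group down, 37 of 71 (52.1%), 26 of 61 (42.6%), 29 of 88 (33.0%) and 25 of 79 (31.6%). The 3192 intronic and intergenic peaks had 47.5%, 38.8%, 36.3% and 34.4%, so the order was not particular to exons. CCAAT was denser near the summit than farther away in exons of coding genes, with 3.38 boxes per kb within 25 bp and 3.84 at 25 to 50 bp, against 1.92 to 2.68 in the 4 bins of 100 bp between 100 and 500 bp. In introns the values near the summit were 2.76 and 3.03 against 2.10 to 2.16, and within 25 bp in intergenic sequence 3.63 against 2.09 to 2.27, so this too was shared with other peaks. In non-coding exons the values were 2.25 and 2.43, from 17 and 18 boxes, against 1.59 to 2.13.

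A GA repeat was frequent at 5′ UTR summits and rare at coding-sequence ones, while 3′ UTRs and non-coding exons had shares close to those of introns and intergenic sequence. AGAGAG (or CTCTCT), the kind of repeat that GAGA factor and its relatives bind, was within 100 bp of 19 of 51 summits in 5′ UTRs (37.3%), 30 of 148 in non-coding exons (20.3%), 12 of 60 in 3′ UTRs (20.0%) and 3 of 40 in coding sequence (7.50%). It was at 19.1% of intronic and 20.2% of intergenic summits, against 7.94% and 7.01% of their windows. Of all windows, 12.6% in 5′ UTRs, 7.23% in non-coding exons, 7.35% in 3′ UTRs and 4.69% in coding sequence held it. In the replicate lists the share was 37.8% ± 1.1 (SD, n = 3) in 5′ UTRs, 21.9% ± 3.7 in non-coding exons, 22.7% ± 6.3 in 3′ UTRs and 9.08% ± 2.0 in coding sequence. All 4 stood above their windows in 3 of 3 replicates. ACACAC (or GTGTGT) was at 39.2% of 5′ UTR summits against 19.7% of windows, and at 23.6% of non-coding ones against 13.7%. Intronic summits had it at 23.6% too, against 14.1% of windows.

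Of 2 promoter-type motifs, neither was frequent. TATCGATA, the site of the factor DREF, was at 0 of the 299 summits and in 0.27% of all exonic windows. CGATAG, which can overlap it, was at 6 of 299 (2.01%) against 5.13% of windows, most of which lie in coding sequence. By class it was at 5.0% of coding-sequence summits against 5.59% of their windows and at 1.35% against 3.37% in non-coding exons. In 5′ UTRs it was at 3.92% against 4.64% and in 3′ UTRs at 0% against 4.37%. In each replicate the exonic share was below that at intronic and intergenic summits, with differences of −1.29, −2.54 and −2.26 points. Summit windows in exons had a median GC content of 47.1% on average over replicates, against 43.3% for introns and intergenic sequence together, higher in 3 of 3 replicates. Taken apart, intronic summits had 41.6% and intergenic ones 46.6%, and in replicate 3 the exonic and intergenic medians were both 46.8%. The difference thus lay mainly with introns. The mean GC content at exonic summits was 46.3%, against 47.4% over all exonic windows. Within 3′ UTRs the mean was 40.8% ± 0.33 (SD, n = 3) at summits against 35.9% over all windows. A match is a run of letters and does not show which factor was bound.

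**Figure D4:**
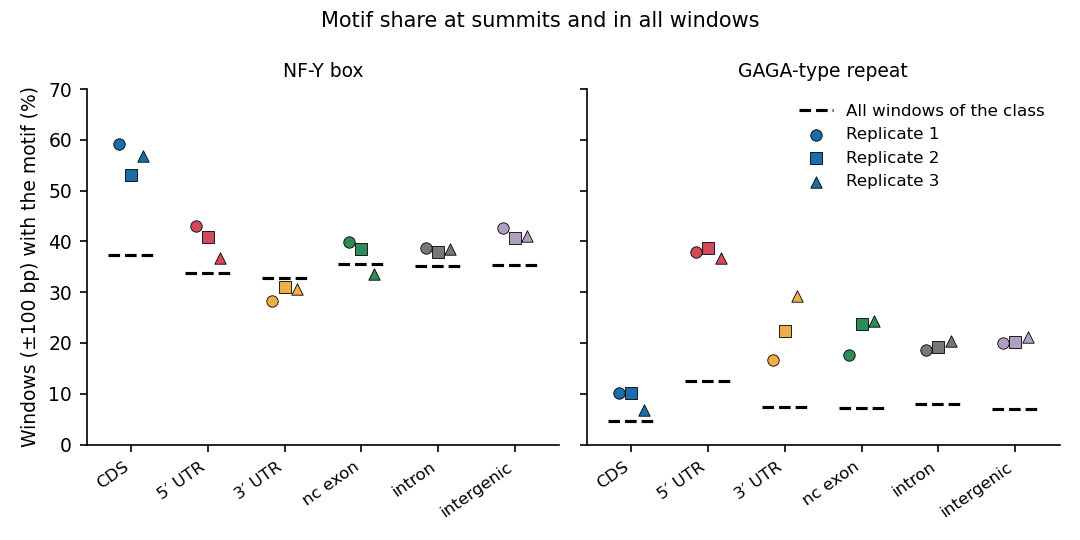
Share of windows, reaching 100 bp to either side of their centre, that hold CCAAT (left, NF-Y box) or AGAGAG (right, GAGA-type repeat) on either strand; points are summits of each replicate's 7476 strongest peaks and dashed lines the share of all windows centred in the class. Coding-sequence summits lie 19.1 points above their line for CCAAT on average, 3′ UTR summits lie below theirs, and 5′ UTR summits reach 37.8% for AGAGAG.

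Coding hosts of exonic peaks frequently had a peak at their own promoter. For 106 of the 151 exonic peaks in coding genes (70.2%) the host also had a thresholded summit within 500 bp of a coding TSS. Among the upper 50% of peaks by signal, taken for both, the share was 40.3%. By gene this was 96 of 137 hosts (70.1%), against 71.3% of the 1016 coding hosts of intronic peaks and 30.6% of all 13945 coding genes. The exonic peak was the stronger of the pair in 40 of the 106, and in 7 of 26 for coding sequence. The 3′ UTR peak of CG16989 had a signal of 22790 in the thresholded set against 315 at its promoter, and that of tio 17070 against 1020. For Lim1 the promoter was stronger (14141 against 4291), as for drm, a zinc-finger factor of the gut (12449 against 2536).

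The hosts were set against 5 gene lists, which hold only some developmental regulators (disco-r and Ets21C are in none of them). Of all 13945 coding genes, 137 were hosts. Of 104 patterning transcription factors, 11 held 12 exonic peaks. These were srp, tio, Lim1 and drm, described above, and vg, mid, otp, Poxn, hth, tin and bsh, with thresholded signals from 247 to 1056. hth held 2 of them. Of 32 segmentation and Hox genes, ftz (185, 121 and 76.7 in replicates 1, 2 and 3, in coding sequence) and kni were hosts. The list of 30 Polycomb and trithorax group genes gave Su(z)2 (209, 152 and 71.3). That of 85 cytosolic ribosomal proteins gave RpS23, with no match in replicate 3 (157 and 105 in replicates 1 and 2). That of 111 replication-dependent histone genes gave no host. The host counts of these last lists are too small to set apart from the share among all coding genes. By nearest coding TSS, the patterning list accounted for 6.69% of exonic peaks and 8.11% of those in non-coding exons. It accounted for 7.51% of intronic, 12.3% of intergenic and 3.01% of promoter peaks, and for 0.746% of coding genes.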

How the data were processed

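Chromatin immunoprecipitation followed by sequencing was done on 3 embryo samples of 1 group. The authors deposited peak lists, per the labels called on dm6: 30000 peaks for each replicate, 30000 for the pooled replicates, and an "optimal" list of 7476 peaks thresholded by the irreproducible discovery rate, which equals the 7476 strongest of the pooled list. Peaks were called against 1 control alignment, per the text filed with each sample; neither these notes nor the labels name the caller, its version or the threshold. The deposited signal is the caller's score, in a unit that is not stated. The deposited −log10 q-value was 4.24 for every thresholded peak and was not used to rank them.

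Each base was assigned in the order promoter window (500 bp), coding sequence, 5′ UTR, 3′ UTR, non-coding exon, intron and intergenic, on 6 chromosome arms, with the Ensembl annotation (BDGP6.54). Sequence was the RefSeq Release 6 assembly, in which 30540 of 30593 annotated start codons read ATG. The class of 1500 random positions was checked against a direct search. The density calculation returned ratios planted with positions drawn from the same base assignment. This checks its arithmetic only, not the annotation or the peaks. Tests were two-sided exact sign-flip permutations over the 3 replicates (Python 3.11.15, NumPy 2.4.6, SciPy 1.17.1), adjusted by Benjamini and Hochberg. With 3 replicates the p-value is 0.25 whenever all 3 values share a sign, whatever their SD. It thus records agreement in sign and does not measure the spread between samples.

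Named sites were the 12 strongest exonic peaks, the 5 strongest of each class, genes with 3 or more, the 2 nearest the 500 bp limit, and up to 4 hosts of each gene list. The other 7 hosts of the patterning list, well-known RNAs and microRNA hosts were named after their values were seen. The members and lists were chosen with earlier results of these data known. Alternatives varied the limit, annotation, summit, threshold, windows and replicates.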

Additional observations from a re-analysis of the deposited data

How the results depend on the processing

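No paired analysis was possible because the series has 1 group. Of 76 recomputed values, 52 kept their direction and stayed within the limits set for them, 17 moved and 7 reversed. The exonic to intronic density ratio kept its negative log2 value under all 11 alternatives, from −2.61 with coding-gene exons only to −1.45 with all 30000 peaks of each list, and was −2.18 with transposable-element exons, an alternative added after seeing the data. The number of exonic peaks was 151 with exons of coding genes only, 132 among the upper 50% of peaks by signal, and 178 to 214 when required among the strongest peaks of the other lists without replicate 1, 2 or 3. These counts are smaller by construction.

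The percentile difference of exonic peaks turned to 0.076 among the upper 50%. The CCAAT difference, near 0 in the reported setting, was 0.0048 points with a limit of 250 bp, 1.55 with coding-gene exons, 2.18 among the upper 50%, 1.14 with peak midpoints and 0.12 with windows of 50 bp. Without 1 replicate it ranged from −0.89 to 1.01. Its sign is not established. The share of exonic peaks in all lists was 95.5% in the upper 50%, 58.2% with matches within 50 bp and 91.0% within 200 bp, and 84.6% to 94.3% over 2 lists.

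The share near a non-coding TSS was 0.66% with coding-gene exons, 33.3% in the upper 50%, 25.7% with midpoints and 16.7% within 250 bp, and 29.8% to 31.8% without 1 replicate. The share of coding hosts with a promoter peak was 78.1% and 55.9% with limits of 1000 and 250 bp, 40.3% in the upper 50%, and 67.9% to 71% without 1 replicate. Where the construction does not show it, the cause was not tested. With 3 replicates, unscaled signals and no read counts, small differences between classes are not detectable here.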

Other observations

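In the pooled list, peaks under the threshold were exonic more frequently than those above it. Of the 17449 such peaks away from promoters, 1896 (10.9%) lay in exons, against 8.56% in the thresholded set. The added exonic peaks were mostly of the classes that were sparse above it: coding sequence made up 545 of the 1896 and 3′ UTRs 609. CCAAT was within 100 bp of 40.9% of the coding-sequence summits and 32.8% of the 3′ UTR summits below the threshold, against 55.0% and 25% above it.

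Exonic peaks were spread over the chromosome arms. Per Mb of exon over 500 bp from a coding TSS, their number ranged from 9.46 on arm 2R to 12.5 on chromosome 4, the latter from 5 peaks. The base after the CCAAT nearest to the summit, within 50 bp of it, was C in 24 of 71 exonic peaks (33.8%), 97 of 268 intergenic peaks (36.2%) and 25.3% of 494 intronic peaks. These shares are given as values with no test.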
